A study of Mus musculus with 5 samples.

Results

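The 9 genes described here are 6 signal transducers and activators of transcription (Stat2, Stat3, Stat4, Stat5a, Stat5b and Stat6) and 3 Janus kinases (Jak1, Jak3 and Tyk2), taken by gene symbol from the 55487 genes counted in each library. All 9 passed the filter on low counts and were tested. RNA was sequenced from mature CD4 single-positive (CD4 SP) thymocytes of C57BL/6J mice, sorted as live CD24-low, CD4+, TCRb+, CD8- cells that did not bind the aGalCer-loaded CD1d tetramer, which stains invariant natural killer T (iNKT) cells. The 3 wild type (WT) libraries were compared with 2 Tet2-/-Tet3flx/flxCD4cre libraries, called Tet2/3 DKO. TET2 and TET3 oxidize methylated cytosine. In the DKO mice Tet2 is lost in all cells, whereas Tet3 is deleted only where CD4-Cre is active, in T cells from the double-positive stage on. The WT mice are labelled wild type. The mice were young and 1 library was made from each.

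Janus kinases sit on the cytoplasmic tails of cytokine receptors. When a cytokine binds, they phosphorylate the receptor, STAT proteins dock there, are phosphorylated in turn, pair up and enter the nucleus to switch on target genes. In T cells each STAT is tied to certain cytokines: STAT4 to IL-12, STAT6 to IL-4, STAT3 to IL-6 and IL-21, STAT5A and STAT5B to IL-2 and IL-7, and STAT2 to type I interferon. Read counts report the amount of each transcript and not its phosphorylation.

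On GRCm38, the build of the files, the annotation places Stat4 (ENSMUSG00000062939) at chr1:51987148-52107189 (+ strand), Stat2 (ENSMUSG00000040033) at chr10:128270559-128292849 (+ strand), Stat6 (ENSMUSG00000002147) at chr10:127642986-127660957 (+ strand), Stat3 (ENSMUSG00000004040) at chr11:100885098-100939540 (- strand). The Stat5 genes are neighbours, with Stat5a (ENSMUSG00000004043) at chr11:100859351-100885169 (+ strand) and Stat5b (ENSMUSG00000020919) at chr11:100780731-100850724 (- strand). Of the kinases, Jak1 (ENSMUSG00000028530) lies at chr4:101152367-101265282 (- strand), Jak3 (ENSMUSG00000031805) at chr8:71676296-71690575 (+ strand) and Tyk2 (ENSMUSG00000032175) at chr9:21104068-21131243 (- strand). Counts were taken over the annotated exons of each gene. Reads that also overlapped an exon of another gene were set apart as ambiguous and not counted. Exonic bases shared with another gene were 26.7% of Stat4, 8.07% of Tyk2 and 7.55% of Jak3, and less in the other members.

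To show where these genes start, the sequence before the start site is given for Stat4, the gene that differed most, and for Stat5b, which had the most CG. Letters are from RefSeq on GRCm38.p6, 5′ to 3′ on the strand of the gene, with each CG dinucleotide in capitals, since methylated CG is what TET proteins act on. The 250 bases at chr1:51986898-51987147 (+ strand) precede the first Stat4 start, those at chr1:52007990-52008239 (+ strand) precede a second annotated Stat4 start, and those at chr11:100850582-100850831 (- strand) precede Stat5b.
Stat4, first start: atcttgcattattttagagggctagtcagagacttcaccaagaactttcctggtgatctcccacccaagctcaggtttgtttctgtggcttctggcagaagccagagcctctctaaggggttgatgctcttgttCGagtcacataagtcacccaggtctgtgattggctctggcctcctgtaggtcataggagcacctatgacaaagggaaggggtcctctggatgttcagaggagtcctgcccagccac
Stat4, second start: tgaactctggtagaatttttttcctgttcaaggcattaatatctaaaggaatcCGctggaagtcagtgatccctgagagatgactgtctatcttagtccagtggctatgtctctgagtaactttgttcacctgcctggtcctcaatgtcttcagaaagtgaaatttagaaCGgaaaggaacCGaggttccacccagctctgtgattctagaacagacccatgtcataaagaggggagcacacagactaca
Stat5b: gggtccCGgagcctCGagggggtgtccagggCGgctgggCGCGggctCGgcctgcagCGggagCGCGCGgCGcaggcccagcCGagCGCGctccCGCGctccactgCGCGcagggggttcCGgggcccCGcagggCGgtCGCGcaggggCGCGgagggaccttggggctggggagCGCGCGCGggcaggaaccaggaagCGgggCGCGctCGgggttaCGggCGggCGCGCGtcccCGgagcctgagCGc
The first Stat4 window held 1 CG and the second 3, which placed them at percentiles 13.3 and 33.4 of the 32851 windows of this length, whose median was 6 CG. The Stat5b window held 40 CG, at percentile 98.8, and a second Stat5b start had 5. Jak1 and Tyk2 had 19 each, Stat2 14, Stat3 13, Jak3 8 and Stat6 6, and the Stat5a starts had 5 and 21. The letters TTCNNNGAA, read on both strands as the STAT binding element, were in no window of the 9 genes and in 7.02% of all windows. The same letters with 1 more N in the middle were found once, in Stat2, and in 5.85% of all windows. These windows describe sequence only, and methylation was not analysed here.

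Reads of close relatives can be split between genes, so the sequence shared among the members was measured too. The coding sequences of Stat5a and Stat5b were identical at 84.6% of aligned positions, against 45.9% to 58.1% for the other 14 STAT pairs and 52.0% to 55.8% for the 3 JAK pairs. One stretch of 324 coding bases was the same in both Stat5 genes. Its first 120 bases, coding bases 571 to 690 in both, are shown because a read that lies within them matches both genes.
Stat5a and Stat5b: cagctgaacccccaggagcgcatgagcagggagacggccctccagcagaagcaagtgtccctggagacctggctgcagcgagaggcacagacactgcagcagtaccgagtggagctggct
Of all 50-base words of the transcript used, 17.7% in Stat5a and 11.8% in Stat5b occurred in another gene, so the levels of this pair carry that uncertainty. In Stat4, 32.1% of words were shared with Gm28177, an annotated transcript on the same strand that covers 26.7% of the Stat4 exonic bases and itself had 3 to 9 reads per library. For Stat5a, 22 of its shared words were in Stat3, whose annotated exons overlap those of Stat5a by 72 bases on the opposite strand. The transcripts used for the other 6 members, Stat3 included, held no word found in another gene.

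Reads assigned to genes numbered 17607089 to 27267031 per library. Tet3 had 1133, 1082 and 1440 reads in WT and 419 and 235 in DKO (log2 fold change -1.50 ± 0.18 SE, adjusted p = 0.00121 by edgeR's quasi-likelihood test), whereas Tet2 was not lower (1355, 1286 and 1585 against 1919 and 1048). Counts over a whole gene do not test whether an exon was deleted. In 2 of the 5 libraries the sex in the labels went against the reads. The study's methods give all 5 mice as male. By the reads only DKO replicate 1 was female, so sex was not balanced between WT and DKO. The library labelled WT replicate 1, a female, had 0 Xist reads and 6821 reads summed over Uty, Kdm5d, Ddx3y and Eif2s3y, which are Y-linked, and the library labelled DKO replicate 1, a male, had 744 Xist reads and 7 Y-linked reads. Both were kept in the genotype group of their labels, and their Tet3 reads (1133 and 419) lay on the side of those groups. The fold changes of the members that moved by over 1.5 times without either library are given both ways. Of the CD4 SP defining markers, all 10 were tested and Cd3g was the most abundant (2676 CPM in WT and 2749 in DKO). Cd4, Cd5, Zbtb7b, Ccr7 and Lef1 were lower in DKO and none was higher.

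Stat4, which carries the IL-12 signal, was the 1 member that passed the test, and it rose. It had 698, 662 and 781 reads in WT and 1867 and 1960 in DKO. As CPM (reads scaled to a common library size with TMM factors) these are 27.0, 27.9 and 28.5 against 89.0 and 109.7. Both DKO libraries lay far above the WT libraries, which were close to each other. The mean went from 27.8 ± 0.736 (SD, n = 3) to 99.3 ± 14.6 (SD, n = 2), a 3.57-fold difference (log2 fold change 1.84 ± 0.12 SE, 95% interval 1.57 to 2.10, edgeR adjusted p = 3.09e-05). The log2 fold change was 1.82 without WT replicate 1 and 1.98 without DKO replicate 1. Stat4 ranked 439 of 13525 tested genes by rise. It was known from earlier results of these data when the members were chosen.

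**Figure D1:**
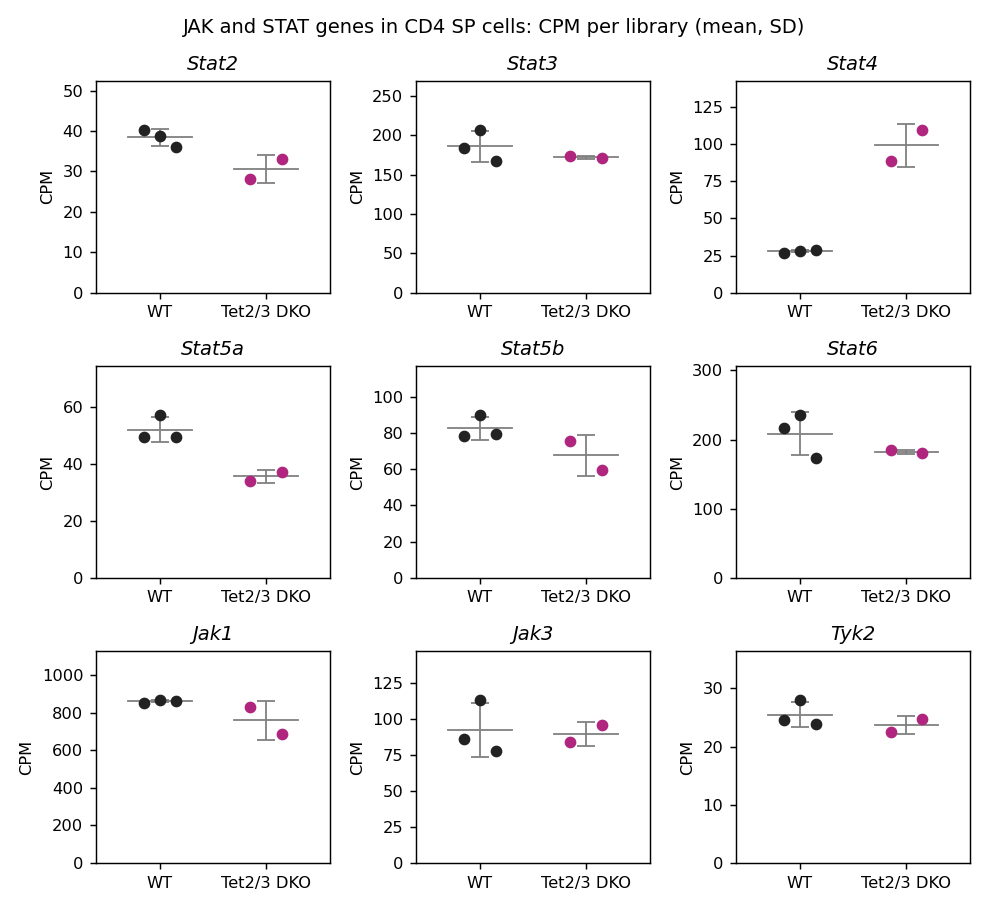
CPM of each JAK and STAT gene in every library (black points, 3 WT; magenta points, 2 Tet2/3 DKO; grey line and bar, mean and SD; the vertical axes start at 0 and differ between panels). For Stat4 the 2 DKO points (89.0 and 109.7) lie above the WT points (27.0 to 28.5), and the remaining genes differ far less.

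Beyond Stat4, 8 of the 9 members did not pass the test, and 0 passed as lower. Over all tested genes 2.42% passed as higher and 1.5% as lower at an adjusted p below 0.01. Both DKO libraries were below every WT library for 4 members (Stat2, Stat5a, Stat5b and Jak1), above for 1 (Stat4) and overlapping for 4. Over all tested genes 19.5% were below and 19.6% above in this way. The log2 fold change was below 0 for 8 members and above 0 for 1, while 48.9% of all tested genes were below 0. At an unadjusted p under 0.05, 2 members were lower, Stat2 and Stat5a, and DESeq2 called 1 lower, Stat5a.

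Stat5a came closest to the threshold of those that were lower. It is one of the STATs that carry the IL-2 and IL-7 signals. It had 49.4, 57.1 and 49.6 CPM in WT and 34.0 and 37.1 in DKO, with no overlap. The means were 52.0 ± 4.41 (SD, n = 3) and 35.6 ± 2.16 (SD, n = 2). Their difference was -0.55 ± 0.12 SE on the log2 scale, with an edgeR adjusted p of 0.0208. DESeq2 put it past the threshold (adjusted p = 0.000884), as did edgeR without DKO replicate 2 (log2 fold change -0.63, adjusted p = 0.00737). The close relative Stat5b had 78.3, 90.0 and 79.5 CPM in WT and 75.7 and 59.8 in DKO, a log2 fold change of -0.28 ± 0.13 SE (adjusted p = 0.218). Without DKO replicate 1 it was -0.47 (edgeR adjusted p = 0.0237), and without DKO replicate 2 it was -0.14 (adjusted p = 0.509). In length-scaled level Stat5b exceeded Stat5a 2.04, 2.03 and 2.07 times in the WT libraries and 2.86 and 2.08 times in DKO, so the 2 DKO libraries did not share a ratio.

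Stat2, the partner of the interferon factor IRF9, had 40.3, 38.7 and 36.1 CPM in WT and 28.2 and 33.0 in DKO (log2 fold change -0.33 ± 0.12 SE, adjusted p = 0.146 by edgeR). Without DKO replicate 1 the log2 fold change of Stat2 was -0.22, and without DKO replicate 2 it was -0.46. Stat3 had 183.7, 207.1 and 167.7 CPM in WT and 173.4 and 171.0 in DKO, inside the WT range. Stat6, the IL-4 STAT, had 216.9, 235.6 and 173.9 against 184.4 and 180.0, also inside the range. Their log2 fold changes were -0.11 (95% interval -0.35 to 0.12) and -0.20 (-0.48 to 0.09). Leaving out WT replicate 2 gave -0.03 for Stat3 and -0.10 for Stat6, and leaving out WT replicate 3 gave -0.19 for Stat3 and -0.32 for Stat6.

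Jak1, the kinase used by most of these receptors, was the most abundant JAK, at 853.7, 866.6 and 864.1 CPM in WT. The DKO libraries had 830.5 and 685.8, both lower, though 1 of the 2 was near the WT level (log2 fold change -0.18 ± 0.10 SE, edgeR adjusted p = 0.294). For Jak1 this became -0.33 without DKO replicate 1 (edgeR adjusted p = 0.0284) and -0.07 without DKO replicate 2 (adjusted p = 0.685). Jak3, the partner of the common gamma chain, had 86.0, 113.1 and 77.6 CPM in WT and 83.8 and 95.5 in DKO, with a log2 fold change of -0.04 (95% interval -0.39 to 0.31). Its sign changed without WT replicate 2 (0.13) and without DKO replicate 1 (0.05), and it was -0.09 without WT replicate 1. Tyk2, which serves the IL-12 and interferon receptors, had 24.6, 28.0 and 23.9 CPM in WT and 22.5 and 24.7 in DKO, with a log2 fold change of -0.11 (-0.41 to 0.19), or -0.04 without DKO replicate 1 and -0.19 without DKO replicate 2. In Tyk2 an antisense gene covers 8.07% of the exonic bases, and reads of both strands counted separately summed to 113% to 128% of the unstranded count, so part of its reads cannot be assigned.

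**Figure D2:**
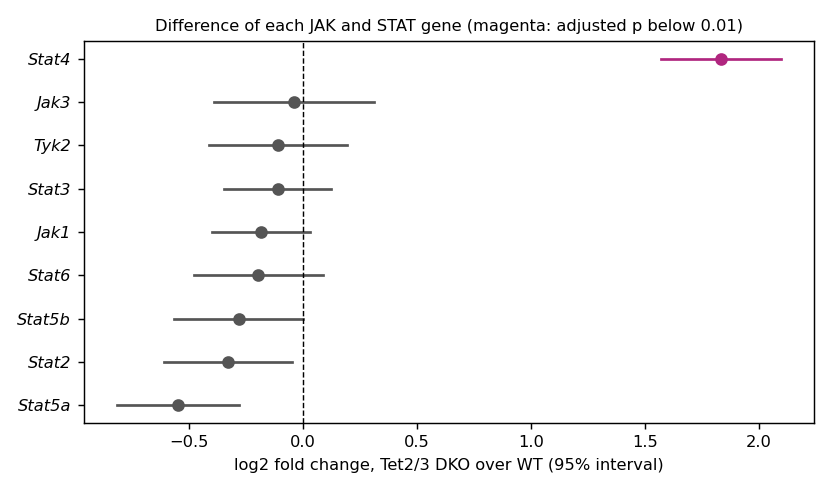
Log2 fold change (points) and 95% interval (lines) of each member, Tet2/3 DKO over WT, from the edgeR fit. Stat4 (1.84) stands alone to the right of 0, and the intervals of Stat5a and Stat2 lie below 0 although their adjusted p-values (0.0208 and 0.146) did not pass.

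To compare levels between genes, CPM was divided by the length of all annotated exons in kilobases (CPM per kb). In WT the order was Jak1 at 119, Stat6 at 47.4, Stat3 at 19.5, Jak3 at 17.2, Stat5b at 14.9, Stat5a at 7.30, Stat4 at 7.18, Stat2 at 6.48 and Tyk2 at 3.71. Within this order the WT libraries overlapped between Stat3 and Jak3, between Jak3 and Stat5b and between Stat5a and Stat4. In DKO, Stat4 stood at 25.7 ± 3.77 CPM per kb (SD, n = 2), behind Jak1 at 105 and Stat6 at 41.4 and ahead of Stat3 at 18.1. Over tested genes, the mean percentile of Stat4 was 60.2 in WT and 81.5 in DKO. Counting only exonic bases not shared with another gene, Stat4 was 9.79 ± 0.259 (n = 3) in WT and 35.0 ± 5.14 (n = 2) in DKO. By this length Stat5a was 7.37 in WT, so Stat4 stood above Stat5a there.

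Within the STAT family the make-up of the summed level shifted toward Stat4. Its share was 6.75%, 6.36% and 8.0% in the WT libraries and 21.6% and 26.1% in DKO, a mean difference of 16.8 percentage points. Stat6 remained the largest share, at 46.0% in WT and 38.5% in DKO. All 6 STAT shares gave an exact permutation p of 0.1 (two-sided), which is the smallest that 3 against 2 libraries allow. Shares add to 100%, so a larger Stat4 share lowers the others. With Stat4 left out, Stat6 made up 49.4% in WT and 50.6% in DKO, Stat3 20.4% and 22.1%, and Stat5a 7.65% and 6.10%. The sum over the 5 STATs other than Stat4 was 95.7 ± 10.8 CPM per kb in WT (SD, n = 3) and 81.8 ± 2.03 in DKO (SD, n = 2). In the JAK family, Jak1 held 85.1% in WT and 83.7% in DKO (exact permutation p = 0.6), Jak3 12.3% and 13.5% (exact p = 0.5) and Tyk2 2.65% and 2.78% (exact p = 0.7). Without DKO replicate 2 these JAK differences turned, to 0.751 percentage points for Jak1, -0.560 for Jak3 and -0.192 for Tyk2.

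**Figure D3:**
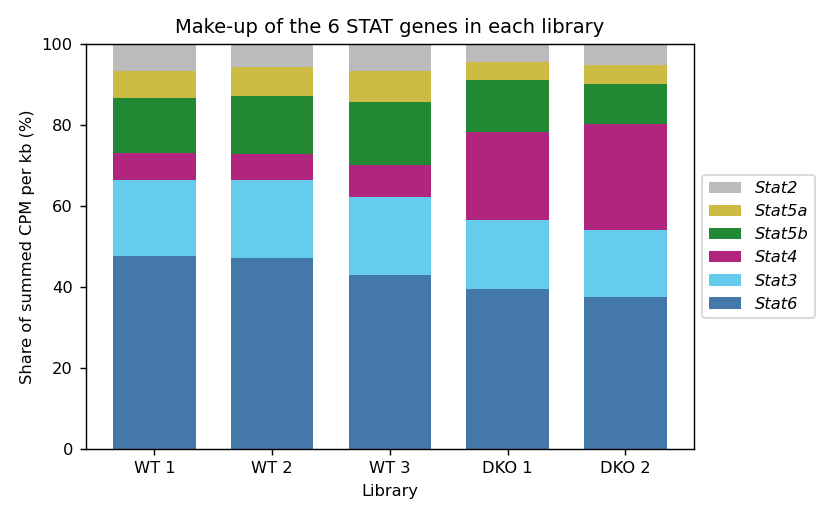
Share of each STAT gene in the summed CPM per kb of the 6 STAT genes (bars, 1 per library, each adding to 100%). The Stat4 segment is 6.36% to 8.0% in the WT libraries and 21.6% and 26.1% in the DKO libraries.

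By the root mean square difference of log2 CPM deviations over the 5 libraries, among 10503 genes the pattern of Stat4 was most like that of H2-Q6 (0.079), AW112010 (0.093) and H2-DMb2 (0.107). On the chromosomes, 2 of the nearest tested genes passed the test. Shmt2 lay 120541 bases from Stat6 (log2 fold change 0.66, edgeR adjusted p = 0.00302). Icam1 lay 75250 bases from Tyk2 (1.25, adjusted p = 0.000444). Neither neighbour of Stat4 passed. Nabp1 lay 508722 bases away (-0.31). Gm31812, 931 bases away, had only 12 to 21 reads per library, and both DKO libraries were above every WT library (0.69). Stat5b, Stat5a and Stat3 lie next to each other on chromosome 11.

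The genes around the JAKs and STATs were described with 7 lists. The lists were chosen with earlier results of these data known. They were described by their counts and medians, with no test of a list. Over all tested genes 2.42% passed as higher and 1.5% as lower. When WT replicate 1, 2 or 3 was left out, each list had only 0 to 2 genes past the threshold as higher and 0 as lower, as calls over all genes dropped to 70 to 104 higher and 40 to 49 lower. Of 21 tested cytokine receptors, 2 rose and 1 fell, with a median log2 fold change of 0.19 (0.01 over all tested genes). Ifngr1, an interferon gamma receptor chain, had 273 ± 18.8 CPM in WT (SD, n = 3) and 510 ± 0.162 in DKO (SD, n = 2), a log2 fold change of 0.90. Il23r, a receptor for IL-23, rose from under 1 CPM (log2 fold change 4.65), and Il6ra, the IL-6 receptor, fell (-0.89). Il2rg, Il21r and Il27ra, the most abundant that did not pass, had log2 fold changes of -0.12, 0.18 and -0.32. Of 19 inhibitors, Socs3 rose (1.36) and Cish fell (-0.86), both feedback inhibitors, while Ptprc, Ptpn6 and Ptpn1 had -0.08, -0.12 and -0.18.

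Of 11 tested STAT4 targets 4 rose and 0 fell, with a median of 1.57. Among them were the chemokine receptor Cxcr3 (3.63), the IL-18 receptor chain Il18rap (2.43) and the costimulatory receptor Icos (1.08). Cxcr3 had 18.6, 19.2 and 31.2 CPM in WT and 247 and 324 in DKO, with no overlap. Without DKO replicate 1, 9 of the 11 passed as higher and the median was 2.21, whereas without DKO replicate 2, 5 passed and the median was 0.67. Map3k8, Il18r1 and Gzmb did not pass (0.26, 0.54 and 2.89), and Gzmb was 1.0 CPM in one DKO library and 47.2 in the other.

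Of 13 STAT3 targets 5 rose, among them Socs3, the transcription factors Maf and Batf, and Il23r, and Bcl3 fell, with a median of 0.79. Maf had a log2 fold change of 3.09 and Batf 0.79, and Bcl3 had -0.73. Junb, Il4ra and Il6st did not pass (0.45, 0.28 and -0.28). Of 8 STAT6 targets 3 rose and 1 fell, with a median of 0.96. Il4, the cytokine, rose by 2.32 and Gfi1, a transcriptional repressor, by 1.24 on the log2 scale, beside Maf, and Cish fell. Xbp1, Il4ra and Gata3 did not pass (0.67, 0.28 and -0.52). Of 14 STAT5 targets 1 rose (Socs3) and 2 fell (Cish and the cyclin Ccnd3, -0.67), with a median of 0.03. Ccnd2, Pim2 and Mcl1 did not pass (-0.16, 0.45 and 0.22). Of 20 type I interferon genes 2 rose, Mx1 (1.51) and Oas1a (1.14), both antiviral, and 0 fell, with a median of 0.55. Irf7, Ifit1 and Rtp4 did not pass (0.65, 0.55 and 0.31). Without DKO replicate 2, 13 of the 20 passed as higher and the median was 0.74, whereas without DKO replicate 1, 2 passed and the median was 0.18. Several genes stand in more than 1 list.

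**Figure D4:**
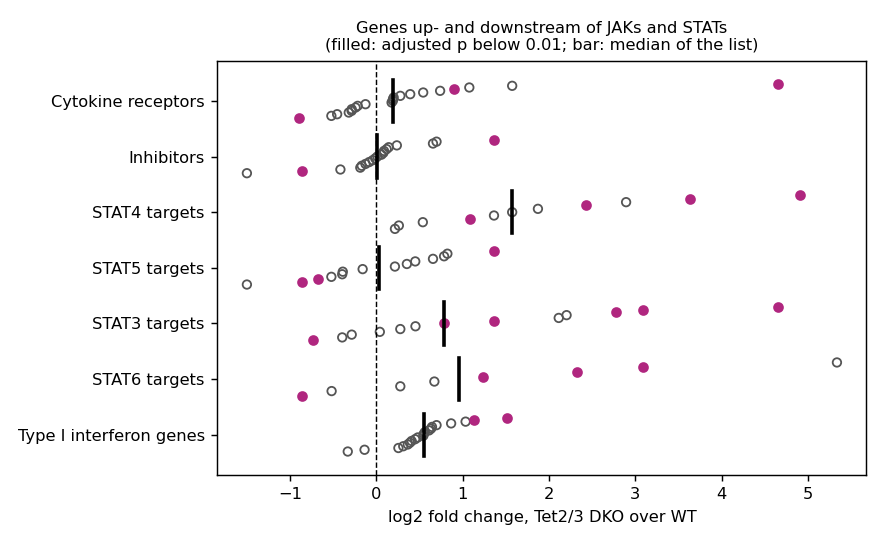
Log2 fold change, Tet2/3 DKO over WT, of the tested genes of each list (filled points, adjusted p below 0.01; open points, not past it; black bar, median of the list). The medians run from 0.01 for inhibitors to 1.57 for STAT4 targets.

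Markers of other cells moved in the same libraries as Stat4. Of 8 markers of NK, iNKT and innate-like T cells 6 rose (Zbtb16, Klrb1c, Klrd1, Ncr1, Nkg7 and Eomes), led in level by Nkg7 (30.4 CPM in WT, 408 in DKO). The summed level of the list was 37.6 to 49.8 CPM in WT and 413 and 687 in DKO. Klrg1 (log2 fold change -0.30) and Klrk1 (1.41), also of that list, did not pass and overlapped between the groups. Klrk1 had 1.55 to 2.08 CPM in WT and 1.05 and 9.51 in DKO. Of 5 gamma delta T cell markers Tcrg-C1, Tcrg-C2 and Tcrg-C4 rose, with sums of 28.5 to 30.5 CPM in WT and 235 and 376 in DKO, while Trdc, the defining constant gene of the delta chain, did not pass (0.33). Sox13, the remaining marker of that list, did not pass either and was lower in both DKO libraries (1.03 CPM in WT and 0.231 in DKO, log2 fold change -2.12). The Treg marker Foxp3 (-1.31) and the CD8 marker Cd8b1 (-1.29) fell. The other CD8 marker, Cd8a, did not pass and had 3.67 CPM in WT and 7.22 in DKO (0.94). Of the double-positive thymocyte markers, Dntt was the most abundant (20.0 CPM in WT, 13.9 in DKO). The B cell (2 tested), myeloid (6), dendritic (3) and epithelial (3) markers gave no call, and 0 erythroid markers could be tested. All 6 tested myeloid markers had a log2 fold change above 0 and 5 had both DKO libraries above every WT library, with a median of 1.47, and the summed level of that list was 9.29 to 15.4 CPM in WT and 25.5 and 56.8 in DKO. By mean CPM over all libraries the most abundant of these were Cd79b among B cell markers (3.82 CPM in WT, 6.33 in DKO), Lyz2 among myeloid (9.00 and 30.5), Xcr1 among dendritic (0.674 and 1.88) and Epcam among epithelial markers (9.74 and 22.1). Other genes of these lists were lower in both DKO libraries without passing, with log2 fold changes of -0.67 for Cd79a, -1.64 for Flt3, -2.52 for Krt8 and -5.05 for Psmb11, and these were picked after their values were seen. Tnfrsf18 was the most abundant Treg marker (216 and 154), and of the 5 Treg markers 2 had a log2 fold change above 0, Ikzf2 (0.37) and Ctla4 (0.09), neither of which passed. The part of such cells in the Stat4 difference was not tested. In bulk RNA, more cells with Stat4 and more Stat4 per cell cannot be told apart.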

How the data were processed

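RNA from each sort was made into SMART-seq libraries. Per the labels and the study's methods, the authors trimmed reads with fastp 0.21.0 and mapped them with STAR 2.7.5a to mm10, whose gene counting gave the deposited counts: whole, unnormalized reads per gene, unstranded and for each strand. The unstranded counts were used here, since the kit does not mark strand. The 4 summary lines (no feature 3.51% to 5.70% of reads) were left out. Symbols came from GENCODE M21 (55141 of 55487 identifiers found).

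Genes passing filterByExpr (13525) were fitted with edgeR 4.0.16 (TMM, glmQLFit and glmQLFTest, R 4.3.3), Benjamini-Hochberg adjusted over all of them, with a threshold of 0.01. The fit was tested on simulated data. DESeq2 1.42.0 was an alternative. Family shares were compared by exact permutation (scipy 1.17.1). Coding identity used GENCODE transcripts and promoters RefSeq on GRCm38.p6. The members and lists were chosen with earlier results of these data known. Named genes were the members, the targeted and sex genes, and of each list up to 5 per direction past the threshold with the 3 most abundant not past it, plus the 3 genes most like Stat4, neighbours past the threshold, and for markers those past it and the most abundant. Some genes that this rule names are not reported here. Nothing says which libraries were made together. The edgeR p-values judge a difference against the spread between these 5 libraries, which was moderated over all tested genes. Only 2 of the libraries were DKO.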

Additional observations from a re-analysis of the deposited data

How the results depend on the processing

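Stat4 passed in 13 of 13 alternatives, with log2 fold changes of 1.66 to 1.98. The number of members past the threshold as lower was 0, and became 1 (Stat5a) at a threshold of 0.05, with DESeq2, and without DKO replicate 2, so that leaving out 1 library gave 0 to 1. Of 117 fold changes under alternatives, 113 kept direction and call, and Stat5a moved past the threshold in 2. Without 1 library the Jak3 log2 fold change ran from -0.15 to 0.13, above 0 without WT replicate 2 (0.13) and DKO replicate 1 (0.05). Of 90 shares, 87 kept direction, and the JAK share differences turned without DKO replicate 2: over the libraries left out they ran from -3.53 to 0.751 percentage points for Jak1, -0.560 to 3.08 for Jak3 and -0.192 to 0.451 for Tyk2.

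All tested genes gave 327 higher and 203 lower, against 582 and 445 with DESeq2, 702 and 471 at 0.05, 70 to 104 and 40 to 49 without 1 WT library, and 685 to 944 and 367 to 463 without 1 DKO library. Leaving out each library in turn (added after seeing the data) moved the list counts: receptors 1 to 4 higher and 0 to 2 lower, inhibitors 0 to 3 and 0 to 2, STAT4 targets 1 to 9 and 0, STAT5 targets 0 to 4 and 0 to 4, STAT3 targets 0 to 6 and 0 to 1, STAT6 targets 0 to 5 and 0 to 2, and interferon genes 0 to 13 and 0. With 1 DKO library left, its spread is assumed to be that of the WT libraries. The cause was not tested.

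WT and DKO share replicate numbers, but nothing in the labels pairs them: same-numbered libraries had deviations correlated at 0.015 and 0.004. With a replicate block Stat4 had a log2 fold change of 1.85 (adjusted p = 0.000457), and 232 genes were higher and 126 lower. With 3 WT and 2 DKO libraries, exact permutation of shares cannot give a p below 0.1.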
